A study of Mus musculus with 10 samples.

Results

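The T cell receptor gene segments are the pieces of DNA from which T cells assemble their antigen receptors. They were taken here as every gene whose annotated biotype marks it as a T cell receptor segment and not as a pseudogene, which gave 226 of the 78317 genes listed. Of these, 144 were variable, 70 joining, 4 diversity and 8 constant segments. The alpha locus held 162 of them (110 variable, 51 joining and 1 constant) and the delta locus 10 (5 variable, 2 joining, 2 diversity and 1 constant), both on chromosome 14. The beta locus on chromosome 6 held 39 (22 variable, 13 joining, 2 diversity and 2 constant), and the gamma locus on chromosome 13 held 15 (7 variable, 4 joining and 4 constant). Another 44 receptor pseudogenes were left out, of which 2 were above 0 in any library, at up to 2.44 TPM, the deposited unit, which scales reads for transcript length and library total.

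The study asked how gene expression in the mouse medial prefrontal cortex changes when the microRNA miR-130a-3p is overexpressed from an adeno-associated virus (AAV). Bulk RNA sequencing was done on tissue punches from wild-type (WT) mice, and the labels describe the tissue as mixed cell types. The control group, libraries 3, 4, 5, 7 and 9, came from mice injected with a control AAV, and the miR-130a group, libraries 13, 14, 15, 17 and 18, from mice injected with the AAV that overexpresses miR-130a-3p. All 10 libraries thus came from AAV-injected cortex. The labels give neither the promoter and serotype of the vectors nor the age and sex of the mice. They do not say that each library is 1 mouse, so the tests weigh differences against library-to-library spread, which may be technical.

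A developing T cell joins 1 variable, sometimes 1 diversity, and 1 joining segment into an exon, and splicing attaches that exon to a constant segment. An alpha chain pairs with a beta chain, or a gamma chain with a delta chain, and the pair reaches the cell surface with the CD3 proteins. Each T cell clone keeps its own rearrangement, so that many clones together use many variable segments while alpha-beta clones draw on the same few constant ones. The delta locus lies inside the alpha locus. Transcripts of the beta locus that carry a constant segment without a rearranged variable segment have been described in mouse neurons.

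The beta locus has a pair of constant segments, Trbc1 and Trbc2, whose levels differed in these libraries and whose sequences are close. Over the 518 coding bases of the constant segments in GENCODE M21, they differed at 23 positions, an identity of 95.6%. The first exon, 375 bases long, held 1 of these differences, C260A, with Trbc1's base first and positions counted from 1 at the first base of the constant segment. The stretches from position 246 to 275, around that difference, and from 383 to 412, the start of a denser run of differences, are shown 5′ to 3′ as in the spliced transcript with differing bases in capitals. A short read that lies in the first exon away from position 260 cannot tell the segments apart.
Trbc1 at 246 to 275: tggcacaatcctcgCaaccacttccgctgc
Trbc2 at 246 to 275: tggcacaatcctcgAaaccacttccgctgc
Trbc1 at 383 to 412: GatTacCtcagcatcctatcaAcaAggggt
Trbc2 at 383 to 412: AatCacTtcagcatcctatcaTcaGggggt

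The overexpressed microRNA is shown because its seed, bases 2 to 8 and in capitals, is the part that pairs with target transcripts. It is given as in RefSeq (GRCm38.p6).
mmu-miR-130a-3p: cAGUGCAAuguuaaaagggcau
The heptamers TTGCACT and TGCACTA, which share 6 bases, were searched on the sense strand of the annotated transcripts. They were absent from all 8 constant segments and present in 3 of 144 variable segments, Trav12-3, Trav6-4 and Trav6d-4. For comparison, 6.91% of 47906 protein-coding transcripts (3311) held a heptamer in their last 692 bases. A match or its absence describes these letters only.

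Few members reached an appreciable level. Of the 226 members, 86 were above 0 in at least 1 library: 7 of 8 constant segments and 79 of 144 variable segments. None of the 70 joining and 4 diversity segments was above 0 in any library. These are annotated at 46 to 66 and 11 to 16 bases, against 328 to 595 bases for variable and 648 to 3865 for constant segments. A mean of at least 1 TPM over the 10 libraries, the filter for the main test, was reached by 3 members, Trac, Trbc1 and Trbc2, and 223 lay below it. Those 3 were tested among 15680 genes on log2(TPM + 1), and the other members that were above 0 in a second fit to all 36601 genes above 0 in a library. Fold changes on this scale understate the change of weakly expressed genes.

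Trac, the constant segment of the alpha chain, was lower with miR-130a. It stood at 7.29, 4.37, 2.77, 10.98 and 24.78 TPM in control libraries 3, 4, 5, 7 and 9, and at 0.41, 0.49, 2.77, 1.34 and 2.33 TPM in miR-130a libraries 13, 14, 15, 17 and 18. Control libraries 9 and 7 were the highest, and the groups met at a single value, that of control library 5 and miR-130a library 15. The means were 10.04 ± 8.81 TPM (SD, n = 5) and 1.47 ± 1.06 TPM (SD, n = 5). The log2 fold change was -1.94 (SE 0.474, limma, adjusted p = 0.0201 over all genes tested). It was the 1 member called of the 3 tested, and no member was called higher, where 11.3% of all genes tested were called lower and 2.19% higher (13.5% in either direction). None of the 3 had ranges that did not overlap, which 9.46% of all genes tested had with miR-130a the lower. As deposited, 16.3% of all calls were higher with miR-130a, and this share was 42% with median-ratio scaling and 50.6% with quantile normalization, under both of which Trac was called lower.

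The Trac call rested on few libraries. Without control library 7, miR-130a library 13 or miR-130a library 14, no receptor segment was called, and the adjusted p of Trac reached 0.0587. Without control libraries 7 and 9 together, its log2 fold change was -1.27 and its adjusted p 0.0499. In the fit with no filter, which adjusts over 36601 genes, its adjusted p was 0.0663. In bulk tissue, fewer T cells and less receptor RNA per T cell cannot be told apart.

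Trbc1, the first constant segment of the beta chain, was at 2.35, 1.12, 2.34, 15.25 and 14.48 TPM in the controls and at 0.61, 0, 2.42, 0.49 and 0.56 TPM with miR-130a. Control libraries 7 and 9 lay far above the other 8, and miR-130a library 15 lay above the remaining 3 controls. With a mean of 0.82 TPM with miR-130a, Trbc1 passed the filter of 1 TPM only through the controls. The log2 fold change of -1.77 (SE 0.573) did not pass the test (limma, adjusted p = 0.0625). It passed with a pseudocount of 0.1 or without control library 4. Without control libraries 7 and 9, the difference was -0.79 (adjusted p = 0.164).

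Trbc2, the second beta constant segment, was the most abundant member in every library. It was at 69.03, 44.64, 57.82, 47.27 and 73.46 TPM in the controls and at 62.32, 57.94, 61.41, 45.06 and 57.58 TPM with miR-130a. The miR-130a range lay inside that of the controls, and control libraries 3 and 9 lay above every miR-130a library. The means were 58.4 ± 12.8 TPM and 56.9 ± 6.92 TPM (SD, n = 5 each), and the log2 fold change was -0.02 (SE 0.150, limma, adjusted p = 0.949). Its sign depended on the scaling, at 0.09 with median-ratio scaling and 0.08 with quantile normalization. Control library 7, with the highest Trbc1 of all libraries, was among the 3 libraries with the lowest Trbc2.

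The different course of the constant segments was tested within libraries, as differences of log2(TPM + 1) and after the levels of Trbc2 had been seen. With Trbc2 at a log2 fold change of -0.02, the ratios against it largely repeat the changes of Trac and Trbc1. Their p-values take no account of that choice, so they are not separate evidence of a lower Trac or Trbc1. The log2 ratio of Trac to Trbc2 was -2.73 ± 0.965 in the controls and -4.66 ± 0.686 with miR-130a (SD, n = 5 each). This change of -1.92 gave an exact 2-sided permutation p = 0.00794, the smallest that 5 against 5 libraries can give, and 0.0238 after Benjamini-Hochberg adjustment over 3 ratios. For Trbc1 against Trbc2 the change was -1.75 (exact permutation p = 0.0238, adjusted 0.0357). Trac against Trbc1 changed by -0.17, less than the spread between libraries (exact permutation p = 0.667). Without control libraries 7 and 9, the changes against Trbc2 were -1.28 for Trac (exact permutation p = 0.0357, the smallest that 3 against 5 can give, adjusted 0.107) and -0.79 for Trbc1 (exact permutation p = 0.107, adjusted 0.161). With 3 against 5 libraries an adjusted p under 0.05 would need all 3 ratios at that smallest p, so the adjusted values cannot decide whether a difference holds. For Trac the groups did not overlap, at -3.96 to -3.08 in the 3 controls and -5.49 to -4.05 with miR-130a. For Trbc1 they did, at -4.43 to -4.14 and -5.88 to -4.19, and its unadjusted p was above the smallest possible. The Trbc1 difference thus leaned on control libraries 7 and 9.

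**Figure D1:**
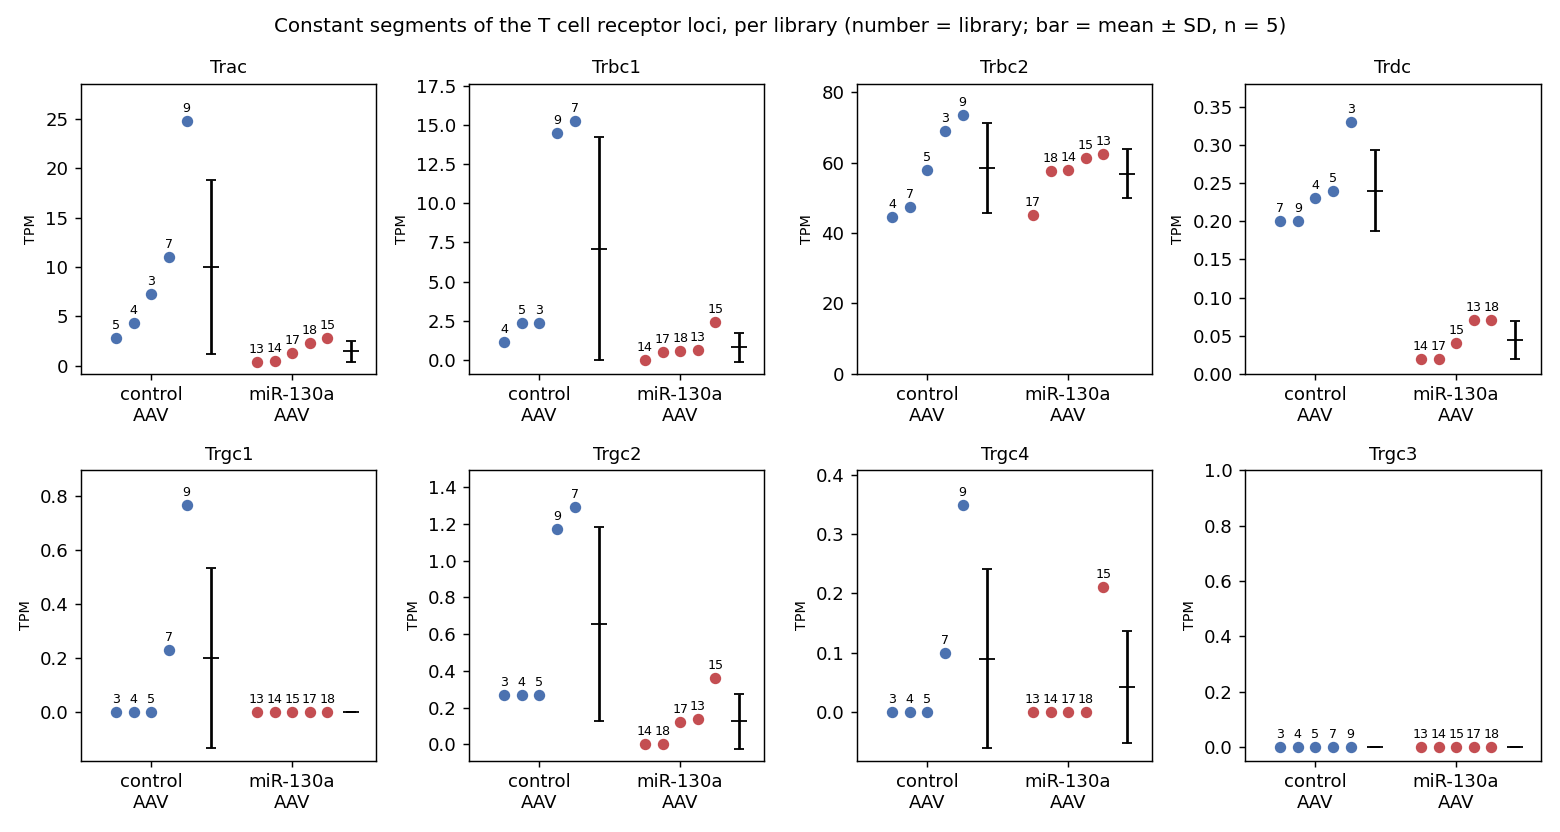
Level in TPM (vertical axes, scaled separately) of the 8 constant segments in each library, with points numbered by library and bars for mean ± SD (n = 5). Trac, Trbc1 and Trgc2 are highest in control libraries 7 and 9, Trbc2 lies between 44.64 and 73.46 TPM in both groups, Trdc does not overlap between groups, and Trgc3 is 0 throughout.

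Trdc, the constant segment of the delta chain, was the only member whose ranges did not overlap between groups, at a level far below 1 TPM. It was at 0.33, 0.23, 0.24, 0.20 and 0.20 TPM in the controls and at 0.07, 0.02, 0.04, 0.02 and 0.07 TPM with miR-130a. Its lowest controls were libraries 7 and 9, the ones in which Trac and Trbc1 were highest. In the fit with no filter, the log2 fold change was -0.25 (SE 0.0414, limma, adjusted p = 0.0127), and it passed with each library left out in turn. It did not pass with robust variance moderation (adjusted p = 0.0838) or among the genes with a mean of at least 0.1 TPM (adjusted p = 0.0879). Trdc was 1 of 2 members called in that fit, where 3.07% of genes were called lower and 0.486% higher (3.56% in either direction), and the ranges of 4.48% of genes did not overlap with miR-130a the lower. The values carry 2 decimals, so that those near 0.02 are coarse. On the opposite strand Trdc overlaps Gm43434 and the variable segment Trdv5, both at 0 TPM in every library.

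Of the 4 gamma constant segments, Trgc2 was the highest. It was at 0.27 TPM in control libraries 3, 4 and 5, at 1.29 and 1.17 TPM in control libraries 7 and 9, and at 0.14, 0, 0.36, 0.12 and 0 TPM with miR-130a (log2 difference -0.51, SE 0.197, limma, adjusted p = 0.232). Trgc1 was above 0 only in control libraries 7 and 9, at 0.23 and 0.77 TPM. Trgc4 was above 0 in the same libraries, at 0.10 and 0.35 TPM, and in miR-130a library 15, at 0.21 TPM. Trgc3 was at 0 in all 10 libraries. None of the gamma segments passed the test.

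Variable segments, which encode most of the antigen-binding part of each chain, were spread thinly. All 79 that were above 0 in any library were above 0 in a control: 53 in controls only, 26 in both groups and none in miR-130a libraries only. The number above 0 was 28, 14, 12, 49 and 49 in control libraries 3, 4, 5, 7 and 9, and 8, 6, 12, 5 and 3 in miR-130a libraries 13, 14, 15, 17 and 18. The groups met at 12, in control library 5 and miR-130a library 15. Of the 79 segments, 28 were above 0 in a single library, and Trav9d-4, in 8 of 10, was seen most often.

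The weak members can be set beside all weak genes, which were not matched to them on level. With Trdc and the gamma constant segments, 83 members were above 0 with a mean under 1 TPM. Of these, 54 (65.1%) were above 0 in controls only and 0 in miR-130a libraries only. Among all 20921 such genes, 17.6% were above 0 in controls only and 18.2% in miR-130a libraries only. In the fit with no filter, 83 of 86 members were lower on average with miR-130a, against 56.5% of all genes, and the median log2 difference was -0.26 against -0.02. The 3 members with higher means with miR-130a were Trav9n-4, Trav8d-2 and Trbv29, and none of them passed. At an unadjusted p under 0.05, 20 of 86 members were lower and 0 higher, against 11.5% and 3.9% of all genes. The 54 members above 0 in controls only could not come out higher. The counts by direction and the median are therefore not evidence about the members. In all counts of members here, the 10 pairs of identical segments above 0 count as 2 members each.

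**Figure D2:**
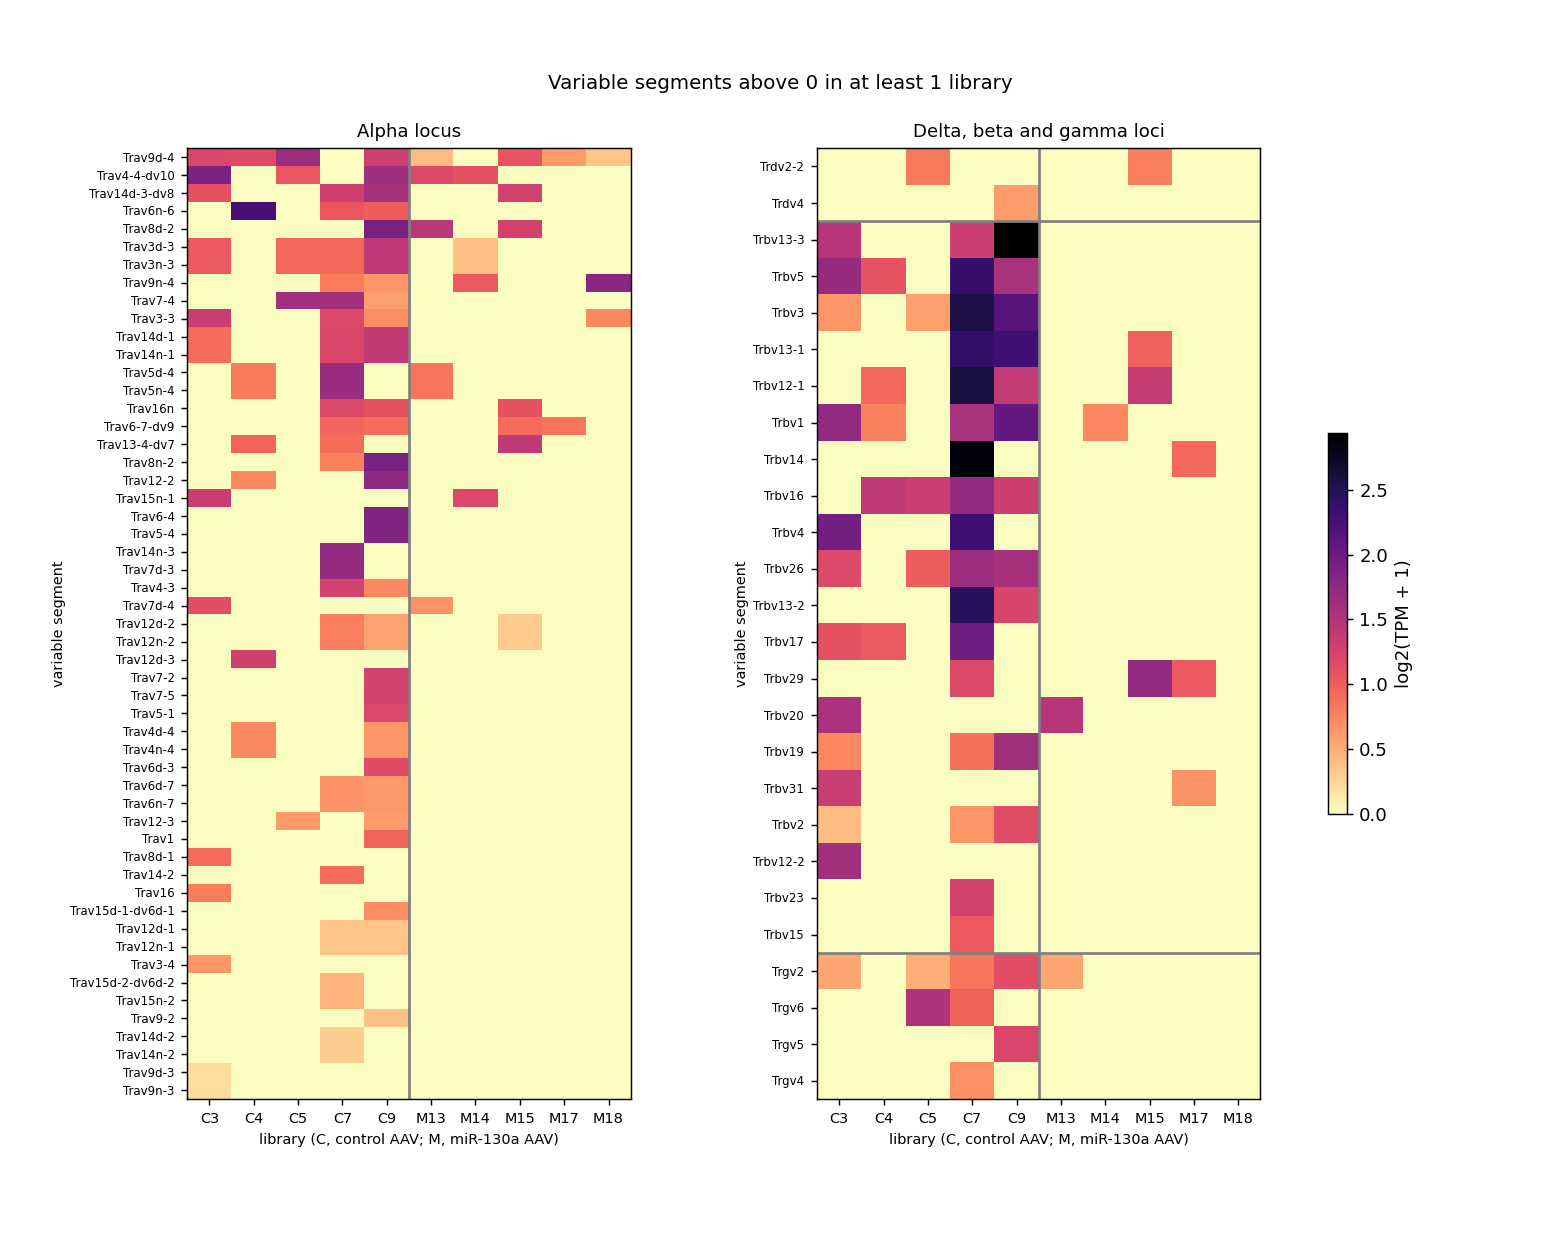
Level on log2(TPM + 1) (colour) of the 79 variable segments above 0 in a library, by segment (rows, ordered by mean within a locus) and library (columns, C for control and M for miR-130a AAV). Control libraries 7 and 9 each have 49 coloured cells and miR-130a library 18 has 3.

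Beta variable segments had the highest single values. Trbv13-3 was at 1.75, 0, 0, 1.5 and 6.65 TPM in the controls and at 0 in all 5 miR-130a libraries. Trbv5 was at 2.20, 1.12, 0, 4.20 and 1.94 TPM in the controls and at 0 with miR-130a. Trbv3 was at 0.57, 0, 0.50, 4.87 and 3.44 TPM in the controls and at 0 with miR-130a. These 3 were the beta variable segments with the highest means, and none passed the test (limma, adjusted p = 0.285 for Trbv13-3, 0.0735 for Trbv5 and 0.209 for Trbv3).

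Trbv16 was the 1 variable segment that passed, chosen for mention after its values were seen. It was at 0, 1.64, 1.5, 2.30 and 1.47 TPM in the controls and at 0 in every miR-130a library, so that control library 3 overlapped with the miR-130a group. Its log2 difference of -1.15 had an adjusted p = 0.0475 (limma, no filter). The call was lost under median-ratio scaling, quantile normalization and scaling without mitochondrially encoded genes, and without any 1 library other than control library 3.

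Among the alpha variable segments, the highest means were those of Trav9d-4, Trav4-4-dv10 and Trav14d-3-dv8. Trav9d-4 was at 1.30, 1.24, 2.14, 0 and 1.44 TPM in the controls and at 0.33, 0, 1.11, 0.53 and 0.28 TPM with miR-130a. Trav4-4-dv10 was at 2.67, 0, 1.09, 0 and 2.09 TPM in the controls and at 1.26, 1.15, 0, 0 and 0 TPM with miR-130a. Trav14d-3-dv8 was at 1.14, 0, 0, 1.45 and 1.96 TPM in the controls and at 1.40 TPM in miR-130a library 15 alone of its group. All 3 overlapped between groups and none passed (limma, adjusted p = 0.452, 0.652 and 0.580). The segments with dv in their names can also join to the delta chain and were counted with alpha.

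Gamma and delta variable segments were near the limit of what was listed. Trgv2 was at 0.46, 0, 0.41, 0.78 and 1.21 TPM in the controls and at 0.46 TPM in miR-130a library 13 only. Trgv6 was above 0 in control libraries 5 and 7, at 1.84 and 0.96 TPM, and Trgv5 in control library 9, at 1.31 TPM. Of the 5 delta variable segments, Trdv2-2 was at 0.76 TPM in control library 5 and 0.72 TPM in miR-130a library 15, and Trdv4 at 0.53 TPM in control library 9. None passed the test.

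Some alpha variable segments are exact copies of each other, since part of the mouse alpha locus is duplicated. In GENCODE M21, in which all 226 members were found by gene identifier, 15 pairs (30 members) had the same transcript sequence, all of them alpha variable segments. Of these pairs, 10 were above 0, and in all 10 both copies carried the same TPM in every library, as Trav3d-3 and Trav3n-3 did at 1.05, 0, 0.90, 0.89 and 1.65 TPM in the controls. Reads cannot tell such copies apart, so that the number of alpha segments above 0 counts these pairs as 2 each. Among variable segments above 0, no other pair had the same values in every library.

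Summed over a locus, the variable segments had lower means with miR-130a at the alpha, beta and gamma loci, and at the delta locus the sign rested on control library 5. The alpha variable sum was 15.61, 10.95, 7.63, 30.16 and 41.81 TPM in the controls and 5.45, 4.10, 8, 1.33 and 3.35 TPM with miR-130a. The beta variable sum was 18.48, 5.40, 3.01, 49.05 and 28.76 TPM in the controls and 1.75, 0.67, 4.82, 2.52 and 0 TPM with miR-130a. In both sums control libraries 7 and 9 were highest, and control library 5 lay below miR-130a library 15. Over all loci together, the variable sum did not overlap between groups, at 13.65 to 81.55 TPM in the controls and 3.35 to 13.54 TPM with miR-130a. These sums were chosen with the data known and carry no test.

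The gamma and delta sums were smaller. The gamma constant sum ran from 0.27 to 2.29 TPM in the controls and from 0 to 0.57 TPM with miR-130a, and the gamma variable sum from 0 to 2.52 and from 0 to 0.46 TPM. The delta variable sum was above 0 in 2 controls and 1 miR-130a library, at up to 0.76 and 0.72 TPM. The beta constant sum ran from 45.76 to 87.94 TPM in the controls and from 45.55 to 63.83 TPM with miR-130a. In control libraries 7 and 9, Trbc1 gave 15.25 and 14.48 TPM of this sum and Trbc2 the rest.

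**Figure D3:**
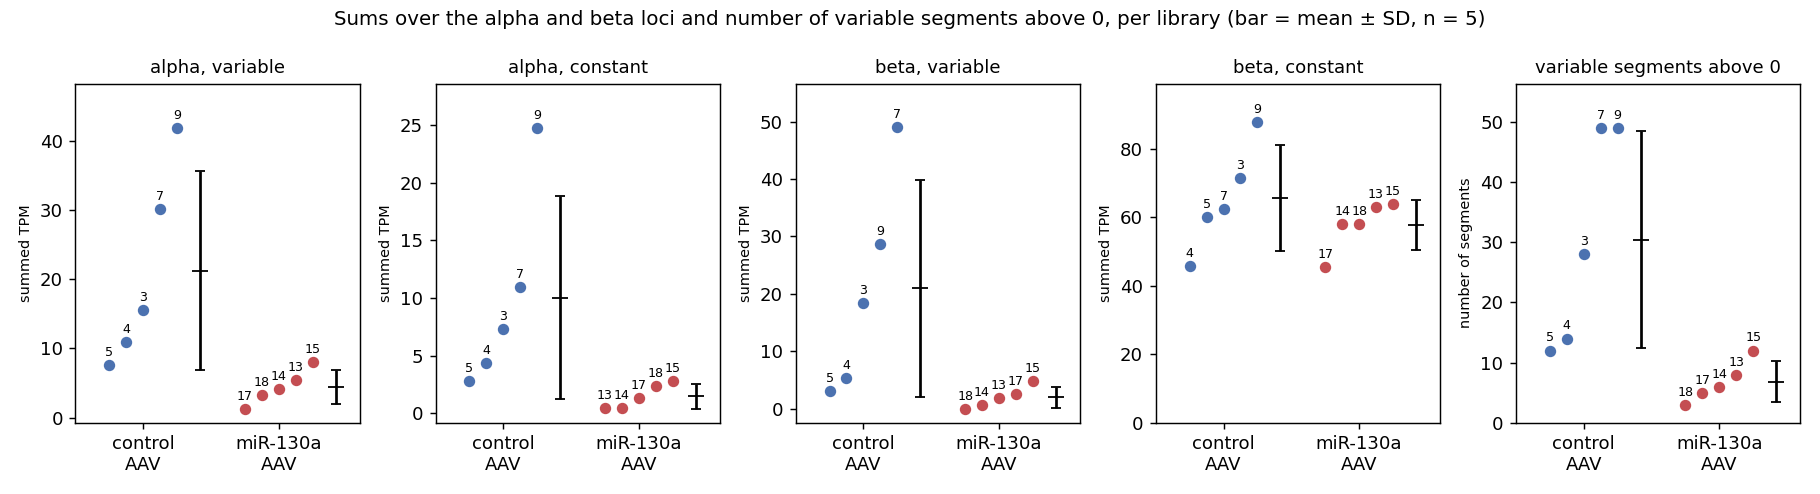
Summed TPM of the alpha and beta variable and constant segments and the number of variable segments above 0 (vertical axes) in each library, with points numbered by library and bars for mean ± SD (n = 5). Control libraries 7 and 9 are highest for the alpha sums, the beta variable sum and the number of segments, while the beta constant sum overlaps widely between groups.

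The level of variable relative to constant segments varied less between controls at the alpha than at the beta locus. The alpha variable sum was 1.69 to 2.75 times the level of Trac in the 5 controls, and 0.993 to 13.3 times in the miR-130a libraries, where both quantities were low. The beta variable sum, in percent of the beta constant sum, was 25.9, 11.8, 5, 78.5 and 32.7 in control libraries 3, 4, 5, 7 and 9, and 2.78, 1.16, 7.55, 5.53 and 0 in miR-130a libraries 13, 14, 15, 17 and 18. Set against Trbc1 alone, the beta variable sum was 1.29 to 7.86 times its level in the controls. In miR-130a library 18, Trbc2 was listed at 57.58 TPM while no beta variable segment was above 0.

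In the libraries with the most receptor signal it was spread over many variable segments. At the alpha locus, the highest segment held 7.56% of the variable sum in control library 7 (Trav14n-3, of 29 above 0) and 6.60% in control library 9 (Trav8d-2, of 35). At the beta locus, it held 12.8% in control library 7 (Trbv14, of 17), 23.1% in control library 9 (Trbv13-3, of 11) and 15.4% in control library 3 (Trbv4, of 12). In the other libraries at most 5 beta segments were above 0, so that such shares say little there.

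In the main test, 11.3% of all genes tested were called lower, and genes that act with the receptor were among them. Of the 4 CD3 genes of the receptor complex, Cd3g and Cd247 were called lower and Cd3e and Cd3d were not (limma, adjusted p = 0.0734 and 0.115). Cd3g was at 7.82, 2.94, 2.72, 16.47 and 23.71 TPM in the controls and at 1.01, 0.32, 3.98, 1.18 and 1.42 TPM with miR-130a (log2 fold change -1.93, SE 0.532, adjusted p = 0.0341). Its call was lost without any 1 of 6 libraries, and that of Cd247 (adjusted p = 0.0316) without any 1 of 5. Neither passed without control libraries 7 and 9, with log2 fold changes of -1.11 (adjusted p = 0.103) for Cd3g and -0.86 (adjusted p = 0.105) for Cd247. Median-ratio scaling and robust moderation also ended the Cd3g call, and quantile normalization that of Cd247. Cd3g placed the controls in the same order as Trac did, 9, 7, 3, 4 and 5, and library 15 was highest of the miR-130a group for both. The coreceptors, which bind the molecules that present antigen, were called lower in 3 of 3 cases: Cd4 (-1.15, SE 0.274, adjusted p = 0.0177), Cd8a (-1.61, SE 0.393, adjusted p = 0.0199) and Cd8b1 (-1.75, SE 0.399, adjusted p = 0.0150). The Cd4 call was lost without miR-130a library 14 or without control libraries 7 and 9 (adjusted p = 0.0551). That of Cd8a was lost without any 1 of 3 libraries. Cd3e, Cd3d and Cd247, with means of 0.66, 0.48 and 0.48 TPM with miR-130a, passed the filter only through the controls. So did Cd8a and Cd8b1, with means of 0.38 and 0.63 TPM with miR-130a, so that these counts are not evidence about the lists. With no filter, 0 of the 4 CD3 genes and 0 of the 3 coreceptors were called, where 3.07% of all genes were called lower.

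Downstream of the receptor, 6 of the 9 signalling genes tested were called lower. Among them were the adaptors Lat (-1.33, SE 0.351, adjusted p = 0.0284) and Lcp2 (-1.54, SE 0.256, adjusted p = 0.00349) and the adhesion receptor Cd2 (-1.77, SE 0.416, adjusted p = 0.0169). The Lat call was lost without any 1 of 6 libraries, and that of Cd2 without miR-130a library 14. Without control libraries 7 and 9, Lat and Cd2 did not pass (limma, adjusted p = 0.0578 for each), while Lcp2 did (adjusted p = 0.0110). Of 9 lineage and homing genes tested, 5 were called lower, with Il2rb, a cytokine receptor subunit, at -1.95 (SE 0.376, adjusted p = 0.00682), Ccr7, a homing receptor, at -1.39 (SE 0.309, adjusted p = 0.0134) and the transcription factor Tcf7 at -0.70 (SE 0.110, adjusted p = 0.00283). Over the 4 T cell lists, 16 of 25 genes tested (of 40 listed) were called lower and 0 higher, against the 11.3% of all genes tested that were called lower. Of the 25, 14 had a mean under 1 TPM with miR-130a, 10 of them called, and passed the filter only through the controls, so that this count is not evidence about the lists. With no filter, 6 of 40 were called lower. With control libraries 7 and 9 left out, 6 of the 25 were called lower, where 15.6% of all genes tested were.

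**Figure D4:**
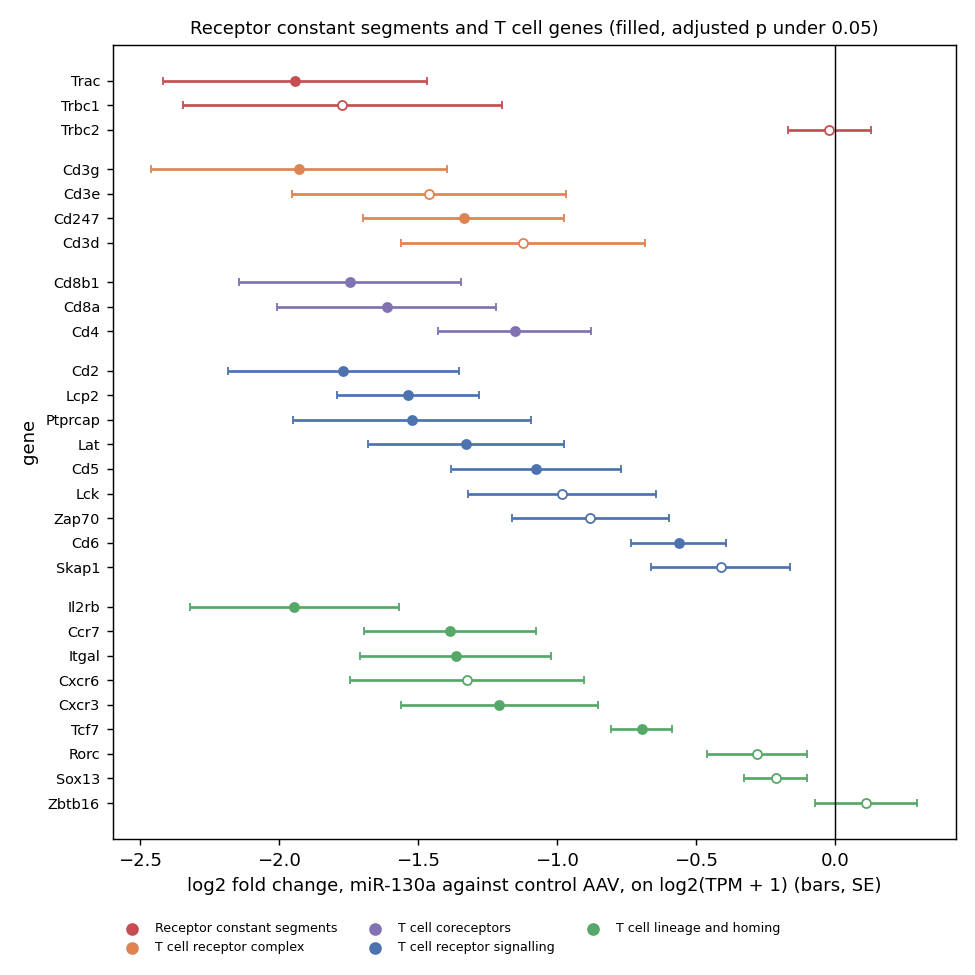
Log2 fold change of miR-130a against control AAV on log2(TPM + 1) (horizontal axis, bars for SE) of the 3 receptor constant segments tested and the 25 T cell genes tested. Filled points passed at an adjusted p under 0.05, and Trbc2 lies at -0.02 while Trac and Trbc1 lie at -1.94 and -1.77.

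The lymphocyte-specific genes of rearrangement were near 0. Rag1, part of the recombinase, was at 0.12, 0.03, 0.12, 0.10 and 0.05 TPM in the controls and at 0.18, 0.22, 0.19, 0.13 and 0.15 TPM with miR-130a, higher without overlap, but it did not pass in the fit with no filter (log2 difference 0.12, limma, adjusted p = 0.183). Ptcra, the partner of the beta chain before alpha is made, was at 0 to 0.26 TPM in the controls and 0.16 to 0.30 TPM with miR-130a (0.20, adjusted p = 0.176). Rag2 was above 0 in 1 library, at 0.05 TPM, and Dntt was at 0.05 TPM or less. Of the 8 genes of V(D)J recombination and the pre-receptor, 4 were tested and 0 were called, where 13.5% of all genes tested were called in either direction. The 4 tested are DNA repair genes active in many cells, among them Xrcc5, at 10.6 to 15.7 TPM and a log2 fold change of -0.22 (SE 0.107, limma, adjusted p = 0.210). Of these 4, none had an unadjusted p under 0.05 in the main test. In the fit with no filter, Xrcc6, lower with miR-130a, had a limma unadjusted p = 0.0488. Rag1 and Ptcra, both higher, had unadjusted p = 0.0172 and 0.0162 in that fit.

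Genes that lie beside the receptor loci were listed for comparison. Dad1, the neighbour of the alpha constant segment, was at 128.77 to 144.17 TPM in the controls and 127.61 to 161 TPM with miR-130a. Of 5 neighbours tested, 1 was called lower, Abhd4, at -0.70 (SE 0.126, limma, adjusted p = 0.00508), where 11.3% of all genes tested were called lower. Abhd4 was at 75.39, 86.98, 93.02, 79.17 and 102.68 TPM in the controls and at 44.12 to 69.27 TPM with miR-130a.

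Genes of other cell types also differed between groups or libraries. Microglial genes were called lower in 7 of 8 cases, with a summed level of 1642 to 3269 TPM in the controls, highest in libraries 7 and 9, and 601 to 878 TPM with miR-130a. Most of that sum came from C1qa, C1qb and C1qc, whereas Csf1r was lowest of the controls in library 9 (114.77 TPM) and P2ry12 in library 7 (31.93 TPM). Cytotoxic granule genes, shared by T and NK cells, were called lower in 6 of 8 tested, where 11.3% of all genes tested were. Among them were Ccl5 at -2.63 (SE 0.567, limma, adjusted p = 0.0113) and Nkg7 at -2.55 (SE 0.508, adjusted p = 0.00791). Of the 8, 6 had a mean under 1 TPM with miR-130a, 4 of them called. Those 6 passed the filter only through the controls, so that this count is not evidence about the list. With no filter, 4 of 9 were called lower, against 3.07% of all genes. None of 5 NK cell genes reached 1 TPM on average, and their sum was 0.63 to 3.96 TPM in the controls and 0.13 to 0.48 TPM with miR-130a. The sum of 5 B cell genes was 9.14 to 457.95 TPM in the controls and 6.90 to 34.25 TPM with miR-130a. Most of it came from Jchain, at 7.24 to 446.62 TPM in the controls and 6.16 to 32.97 TPM with miR-130a. Jchain was not called (limma, adjusted p = 0.257), and 1 of the 3 B cell genes tested, Cd79b, was called lower. Cd79b, with a mean of 0.73 TPM with miR-130a, also passed the filter only through the controls.

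Genes of cortical neurons, the cells that define this tissue, were called in 0 of 7 cases, with a summed level of 2829 to 5061 TPM in the controls, lowest in library 9, and 3761 to 4613 TPM with miR-130a. Red blood cell genes, a sign of blood left in the tissue, were called in 0 of 5 cases, with a summed level of 638 to 1647 TPM in the controls, highest in libraries 7 and 9, and 887 to 1553 TPM with miR-130a. Of 5 striatal genes, 1 was called lower, Adora2a (-0.63, SE 0.181, limma, adjusted p = 0.0413). Among all genes tested, 11.3% were called lower and 2.19% higher. The part of any of the neuronal, red blood cell or striatal counts in a wider change was not tested. The part of any of the cell types listed in the levels of the receptor segments was not tested.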

How the data were processed

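RNA was poly(A)-selected and libraries were stranded, per the labels' protocols. The submitters' processing notes name fastp, HISAT2, RSEM, DESeq2 and the build GRCm39, with no roles. Whether strand was used in quantification is not given in the sources used here. The authors deposited TPM with 2 decimals. TPM keeps no depth, so the reads behind a value are unknown, no counting interval was computed, and a 0 cannot be told from a failed estimate.

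Groups (5 and 5 libraries) were compared with limma 3.58.1 (lmFit, eBayes with trend) in R 4.3.3 on log2(TPM + 1), 2-sided, with Benjamini-Hochberg adjustment over the whole table and a threshold of 0.05. The 15680 genes with a mean of at least 1 TPM were tested. A second fit took all 36601 genes above 0 in a library. The 2 columns of group means were not used.

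Genes named are all constant segments, per locus the 3 variable segments with the highest means, the complex and coreceptor genes, and of other lists the 3 genes with the lowest p, of which only some are printed. The members and the lists, 13 with 98 entries, were chosen with earlier results of these data known, and the red blood cell list after the files were seen. Lists carry no test. Sequences came from GENCODE M21 transcripts (GRCm38) and were matched by gene identifier. No coordinates were used across builds.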

Additional observations from a re-analysis of the deposited data

Results flagged for a closer look

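A library was picked out where its gap to the nearest other library of its group, divided by the range of the group, exceeded 0.71. Of 120 groups of 5 libraries examined, 19 were picked out. About 1 in 20 would be picked out among independent groups of normally distributed values. These groups are not of that kind, since many hold values at 0 and the sums repeat their members, so the 2 shares cannot be compared. In 9 of the 19, all other libraries of the group were at 0, a case that the rule always picks out. Library 15 of the miR-130a group was picked out for Trbc1 (2.42 TPM, others 0 to 0.61 TPM) and the summed gamma constant segments (0.57 TPM, others 0 to 0.14 TPM). With the others at 0, it was picked out for Trgc4 (0.21 TPM), Trdv2-2 (0.72 TPM), Trav14d-3-dv8 (1.40 TPM) and the summed delta variable segments (0.72 TPM). The same library stood out for the T cell genes Cd3e (1.89 TPM, others 0.22 to 0.49 TPM), Cd8a (1.17 TPM, others 0.09 to 0.25 TPM) and Ccr7 (0.79 TPM). It also did so for Ccl5, from the cytotoxic granule list (43.57 TPM, others 6.11 to 14.46 TPM).

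In control library 9, Trbv13-3 (6.65 TPM), Trdv4 (0.53 TPM), Trgc4 (0.35 TPM) and Trgv5 (1.31 TPM) stood above the other controls. Trdv2-2 did so in control library 5 (0.76 TPM), and Trgv2 in miR-130a library 13 (0.46 TPM), where it was the whole of the summed gamma variable segments (0.46 TPM). Trbc2 was low in miR-130a library 17, at 45.06 TPM against 57.58 to 62.32 TPM in the rest of its group. Tcf7 was high in miR-130a library 18, at 3.05 TPM.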

How the results depend on the processing

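No paired analysis was possible because the library numbers of the groups do not overlap. Receptor segments called lower numbered 1 in the main test, 4 at a mean of at least 0.1 TPM (Trac, Trbv16, Trbv26 and Trbv5), 2 with no filter, 2 with a pseudocount of 0.1 (Trac and Trbc1) and 0 to 2 with 1 library left out. None was called higher under any setting run. T cell genes called lower numbered 16, 6 with no filter, 6 without control libraries 7 and 9, and 6 to 18 with 1 library left out. All genes called numbered 2110, 1302 with no filter and 1254 to 3421 with 1 library left out.

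Of members below 1 TPM, 2 were called with no filter and 3 at a mean of at least 0.1 TPM (Trbv16, Trbv26 and Trbv5). This became 4 with a pseudocount of 0.1, and 1 under median-ratio scaling, quantile normalization, scaling without mitochondrially encoded genes, robust variance moderation or without control libraries 7 and 9, and 1 to 4 with 1 library left out. Trdc was called in all of these but robust moderation and the 0.1 TPM filter.

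The delta variable difference of -0.114 TPM was -1.70 TPM with alpha-delta segments counted as delta, and -0.258 to 0.0115 TPM with 1 library left out. Without control libraries 7 and 9, the ratios to Trbc2 differed by -1.28 for Trac and -0.79 for Trbc1. Values that changed sign were small. Trbc2 was at 0.0944 (median-ratio), 0.0774 (quantile), 0.0392 (without mitochondrial genes), 0.00533 (without control libraries 7 and 9) and -0.109 to 0.0671 with 1 library left out. Trdv2-2 was at 0.00437 (median-ratio), 0.00183 (without mitochondrial genes) and -0.163 to 0.156 with 1 library left out. Without control libraries 7 and 9, Trgc4 was at 0.0550 and Drd1 at -0.0255. Trgc4 was at -0.114 to 0.0206 with 1 library left out. The share of higher calls was 16.3%, 42% with median-ratio scaling, 50.6% with quantile normalization and 26.2% without mitochondrially encoded genes. The cause was not tested.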
